A study of Mus musculus with 24 samples.

Results

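Reads on 44 glutamate and GABA receptor genes were described in 2 sorted populations of mouse bone marrow (BM). CLPs (common lymphoid progenitors) were sorted as Lin-IL-7R+ cells, and the B cell progenitors as B220+IL-7R+ cells without surface IgM. The members were all rows, of 24421 genes, whose symbol started with Gabr, Gria, Grik or Grm, or with Grin followed by a digit. They comprised 19 GABA-A receptor subunits, 4 AMPA, 5 kainate and 8 NMDA receptor genes, and 8 metabotropic glutamate receptors. The NMDA group included Grin1os, an antisense transcript of Grin1.

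The donors carried MxCre, which is driven by a promoter that responds to type I IFN, and a YFP reporter of Cre activity. They were Plcg1+/+Plcg2+/+ (wild type, WT), floxed for Plcg1 (Plcg1-/-Plcg2+/+ after Cre), null for Plcg2 (Plcg1+/+Plcg2-/-), or both (Plcg1-/-Plcg2-/-, double-deficient), all on a mixed 129xC57BL/6 background. All groups, WT included, received poly(I:C) at 6 to 12 weeks of age, and their BM was transplanted into lethally irradiated CD45.1+ recipients that were analysed 6 to 8 weeks later. Donor-derived CD45.2+ cells of 3 recipients per genotype were sorted, and each recipient gave 1 library of each population, 24 libraries in all. The number of donors per genotype was not stated, so p-values measure the spread between recipients.

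Ionotropic glutamate receptors (AMPA, kainate and NMDA types) are cation channels that open when glutamate binds, and they carry fast excitation between neurons. GABA-A receptors are chloride channels that carry fast inhibition, and each is assembled from several subunits. Metabotropic glutamate receptors act through G proteins. These genes are best known from brain and retina, and their level in sorted lymphoid progenitors was compared with the share of reads that fell on no gene.

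Libraries held 4232345 to 33219995 reads on genes in CLPs and 1479582 to 25057223 in B cell progenitors. A gene with 3 reads had 0.0903 to 2.03 CPM (its reads scaled to 1e6 reads on genes) depending on the library, a limit from counting error only. B lineage markers were read in both populations. Their sum had a median of 3349 CPM in CLPs and 4851 CPM in B cell progenitors, with overlapping ranges. Cd79b, a signalling chain of the B cell receptor, had medians of 455.5 and 507 CPM, Ebf1, a B lineage transcription factor, 328.6 and 568.4 CPM, and Rag1, a recombinase of antigen receptor genes, 433.3 and 712.8 CPM. Mpo, a granule enzyme of neutrophil precursors, had medians of 1944 and 1697 CPM. Plcg2 lay at 90.7 to 147.7 CPM in CLP libraries labelled Plcg2-deficient and at 195.1 to 269.4 CPM in the others. Plcg1 lay at 71.96 to 178.4 CPM in CLP libraries labelled Plcg1-deficient and at 91.97 to 107.7 CPM in the others, so its total reads did not mark the label. Xist lay between 1332 and 2086 CPM in the CLP libraries labelled Plcg1-deficient and between 22.6 and 797.2 CPM in the others, and Ddx3y moved the opposite way, so sex and the Plcg1 label cannot be told apart; Gria3, Gabre, Gabra3 and Gabrq are on the X chromosome.

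The share of reads on no gene differed between the populations in every mouse. It was 17.9% to 45.2% in CLPs and 59.9% to 87.3% in B cell progenitors, and the ranges did not overlap. Within a mouse it was higher in B cell progenitors by 41.3 percentage points ± 9.28 (SD, n = 12 mice, range 29.7 to 65.1; exact two-sided sign-flip permutation test, p = 0.0004883, the smallest that 12 pairs allow). The highest shares were 45.2% in CLPs of mouse 3 of the Plcg2-deficient group and 87.3% in B cell progenitors of mouse 2 of the Plcg1-deficient group. Against WT, the share differed by -0.27, 6.19 and -6.25 points in Plcg1-deficient, Plcg2-deficient and double-deficient CLPs, and by 11.2, 6.92 and -3.02 points in B cell progenitors. None of these 6 differences passed the exact permutation test (unadjusted p of 0.1 to 0.9, adjusted p of 0.4 to 0.9), which cannot go below 0.1 with 3 mice against 3.

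The 44 genes together held 47546 reads, 34237 in CLPs and 13309 in B cell progenitors. Each had at least 1 read in some library, but 7 had a read in all 24 libraries, and 31 had a mean below 1 CPM. Of all member reads, 57.1% were on Gria3, 12.6% on Grik5, 11.01% on Grm6 and 3.17% on Gria2. More reads of the family were thus on Gria3 than on the other 43 genes together.

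To set the members beside the no-gene reads, the reads per kb of exon were divided by the no-gene reads per kb of genome outside exons. A ratio of 1 means that a gene was read as densely as no-gene reads would be if spread over the genome outside exons, introns included. With the 12 libraries of a population summed, the ratio exceeded 2 for 7 of 43 members with a known exon length in CLPs and for 2 of 43 in B cell progenitors. Over all genes with a length it exceeded 2 for 57.8% and 44.6%, and over 1125 odorant receptors, which are best known from olfactory neurons, for 2.07% and 0%. The median ratio over all genes was 6.03 in CLPs and 0.969 in B cell progenitors. A lower ratio in B cell progenitors was thus not particular to the members. The 7 members in CLPs were Gria3, Grik5, Grm6, Grin3b, Gria2, Grin2d and Grm8, and the 2 in B cell progenitors were Gria3 and Grik5. By the median over libraries it exceeded 2 for 4 members in CLPs, Gria3 (116), Grik5 (39.84), Grm6 (9.334) and Grin3b (5.088), each of them above 2 in all 12 libraries, and not for Gria2 (1.893), Grm8 or Grin2d. Grm6 had 40.6 with the libraries summed, so a few libraries carried that value. In B cell progenitors the same 2 members exceeded 2 by the median, and Gria3 did so in all 12 libraries. With the libraries summed, all 19 GABA-A subunits lay below 2 in both populations, with a median ratio of 0.449 in CLPs and 0.255 in B cell progenitors. In single CLP libraries some of them exceeded 2, up to 3.79 for Gabrr2. The members thus did not share one level.

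**Figure D1:**
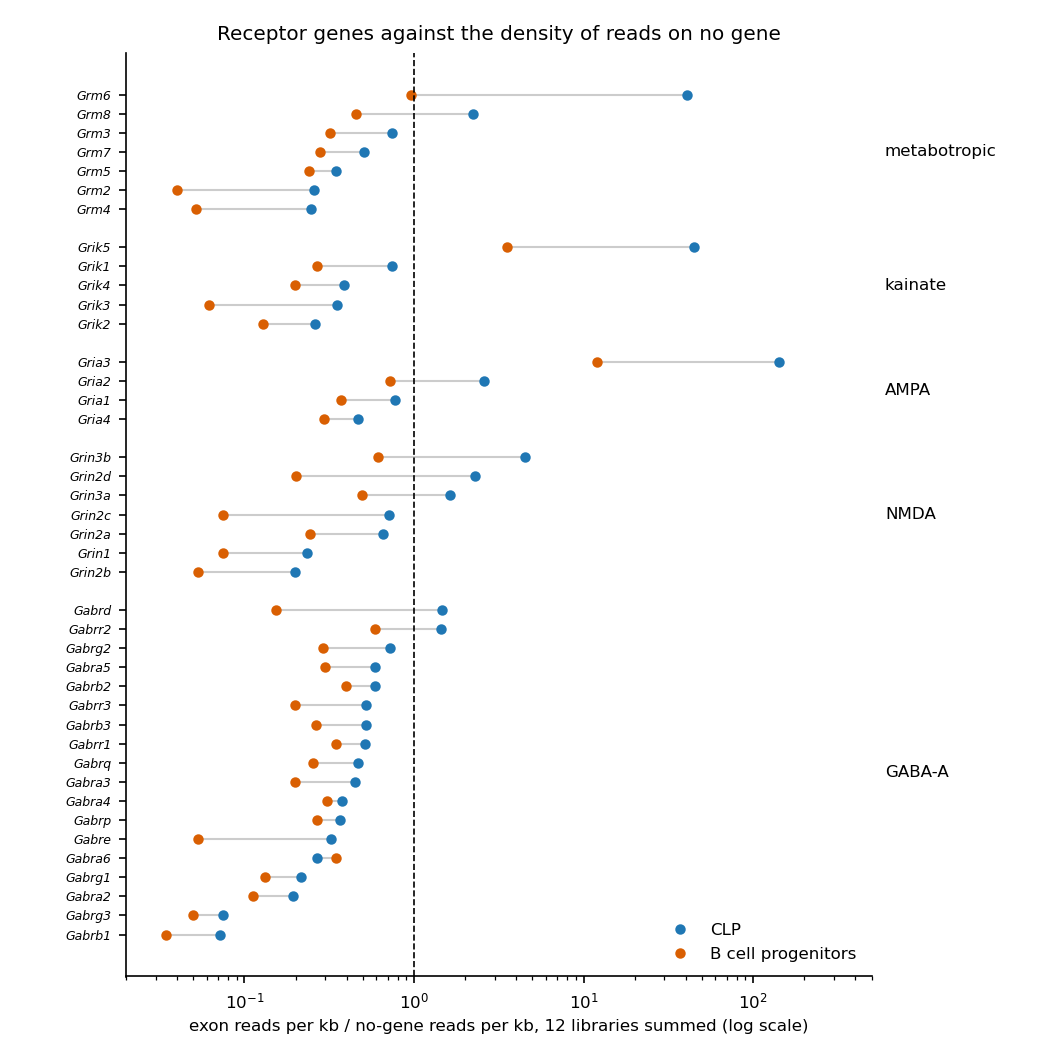
Ratio of exon reads per kb to no-gene reads per kb (log axis) for 41 receptor genes, with the 12 libraries of a population summed, CLPs in blue and B cell progenitors in orange. The dashed line marks a ratio of 1. Gria3 reached 142 in CLPs and 12.1 in B cell progenitors, and every GABA-A subunit plotted lay below 2. Over all genes the median ratio was 6.03 in CLPs and 0.969 in B cell progenitors.

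Gria3 encodes an AMPA receptor subunit and lies at chrX:41400854-41678601 (GRCm38, plus strand). It had a mean of 89.4 CPM over the 24 libraries. In CLPs it had 141.5, 22.6 and 70.62 CPM in the 3 WT mice and 147.0, 77.98 and 88.64 CPM in the Plcg1-deficient mice. In the same population it had 154.5, 101 and 104 CPM in the Plcg2-deficient mice and 192.4, 49.05 and 55.46 CPM in the double-deficient mice. WT mouse 2 was the lowest CLP library and double-deficient mouse 1 the highest, and all 4 genotypes overlapped. The 3 mice of each genotype had, in B cell progenitors, 47.58, 23.61 and 61.64 CPM in WT, 146.1, 52.82 and 81.94 CPM in Plcg1-deficient, 153.7, 27.59 and 58.80 CPM in Plcg2-deficient, and 156.4, 42.22 and 89.59 CPM in double-deficient cells. In this population too the genotypes overlapped, and mouse 1 was the highest of its group in the 3 deficient genotypes.

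The level of Gria3 in B cell progenitors followed that in CLPs of the same mouse on the log2(CPM + 0.1) scale, with Pearson's r = 0.68 and Spearman's rho = 0.64 over 12 mice (permutation test, unadjusted p = 0.015 and 0.0301, adjusted p = 0.0898 and 0.181 over 6 relations). The relation did not pass the adjustment and rested in part on the extreme mice, since r was 0.38 without the 2 mice farthest from the median. Within genotypes, as deviations from the group means, r was 0.70. The other relations were weaker, with an r of 0.60 for Gria2 (adjusted p = 0.106), 0.062 for Grik5 and 0.052 for Grm6 (adjusted p = 0.841 for both), 0.37 for the summed GABA-A subunits (adjusted p = 0.486) and 0.29 for the no-gene share (adjusted p = 0.529), each by permutation test over 12 mice. Their rho values were 0.56, 0.11, 0.17, 0.41 and 0.27 in the same order, with adjusted permutation p of 0.190, 0.728, 0.694, 0.384 and 0.604, and without the 2 farthest mice r was 0.42, -0.15, 0.22, 0.20 and 0.0095.

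The profile of Gria3 over the 24 libraries was most like those of Lmo2, a transcriptional co-regulator of blood progenitors (Spearman's rho = 0.977), Dstyk (0.976) and Gapt (0.965), among 13688 genes with a mean of at least 1 CPM. The libraries share depth and scaling, and these values are a description. Gria3 also followed summed markers of other blood cells. In B cell progenitors rho was 0.937 with 7 neutrophil markers (1151 to 6848 CPM summed), 0.965 with the megakaryocyte markers Pf4, Itga2b and Ppbp (18.3 to 98.3 CPM) and -0.734 with 10 B lineage markers (2564 to 9995 CPM). In CLPs these values were 0.573 (1857 to 6990 CPM), 0.273 (21.4 to 330 CPM) and -0.895 (2546 to 7460 CPM). Of these markers, Ppbp was at 0 in some libraries of both populations and the others were read in all 24, and the part of such cells in the level of Gria3 was not tested. The values did not single out a cell type. In B cell progenitors rho was also 0.902 with plasma cell, 0.888 with natural killer (NK) and 0.846 with dendritic cell markers. It was 0.832 with macrophage, 0.776 with erythroid, 0.734 with neuron and glia, 0.608 with T cell and 0.245 with lymphoid progenitor markers. In sorted bulk samples, fewer cells that express a gene and less RNA of it per cell cannot be told apart.

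**Figure D2:**
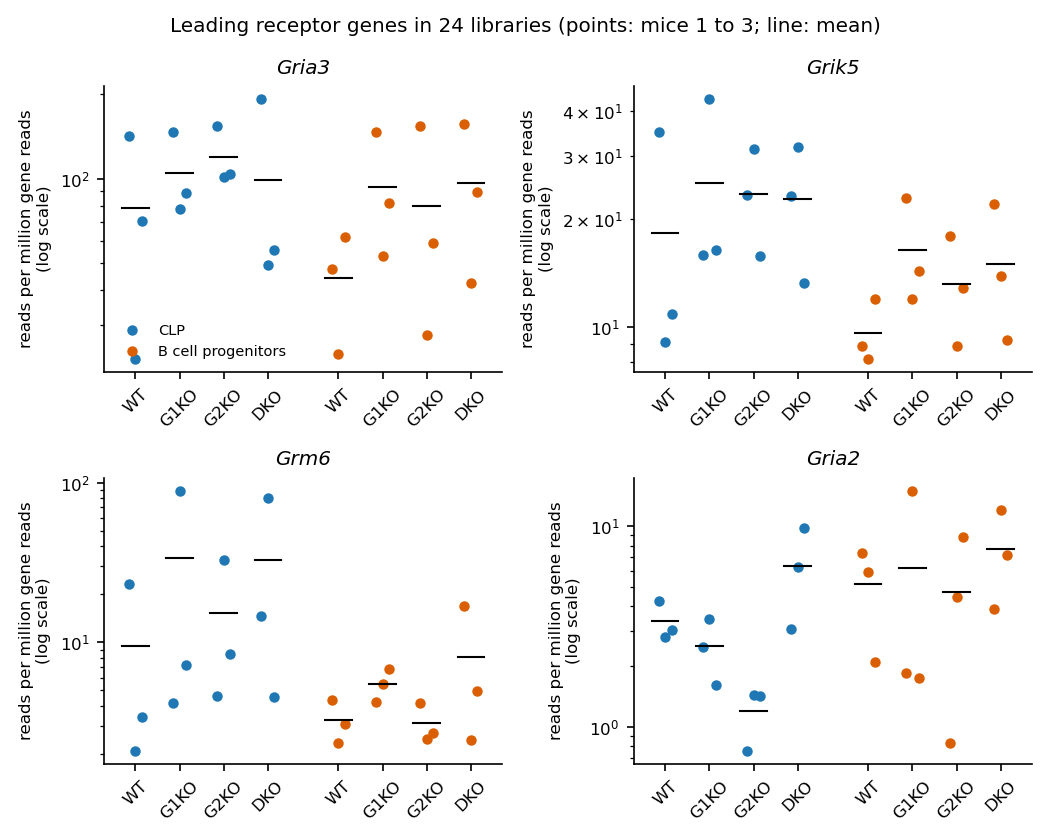
CPM (log axis) of Gria3, Grik5, Grm6 and Gria2 in each library, by genotype (WT, G1KO = Plcg1-deficient, G2KO = Plcg2-deficient, DKO = double-deficient); points are mice 1 to 3 and lines the means. Genotypes overlap within a population for Gria3 and Grm6, Grik5 is higher in all 3 Plcg1-deficient (11.98 and above) than in the WT (up to 11.96) libraries of B cell progenitors, and Grm6 reached 89.1 and 79.5 in 2 CLP libraries against 16.8 at most in B cell progenitors.

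Grik5 encodes a kainate receptor subunit that binds glutamate with high affinity and forms channels only with another subunit; it lies at chr7:25009849-25072346 (minus strand). In CLPs the 3 mice had 35.02, 9.09 and 10.90 CPM in WT, 15.86, 43.17 and 16.37 CPM in Plcg1-deficient, 23.34, 31.38 and 15.83 CPM in Plcg2-deficient, and 23.25, 31.79 and 13.26 CPM in double-deficient cells. In B cell progenitors the range was narrower, from 8.14 CPM in WT mouse 2 to 22.90 CPM in mouse 1 of the Plcg1-deficient group. All 3 Plcg1-deficient libraries, from 11.98 CPM, lay just above the 3 WT libraries, which reached 11.96 CPM, and the difference did not pass edgeR's test (log2 fold change 0.65 ± 0.34 SE, adjusted p = 0.467). Grm6 encodes the metabotropic receptor of retinal ON bipolar cells and lies at chr11:50850685-50866208 (plus strand). It was uneven among CLPs: mouse 2 had 89.13 CPM in the Plcg1-deficient, 32.68 CPM in the Plcg2-deficient and 79.52 CPM in the double-deficient group, WT mouse 1 had 23.03 CPM, double-deficient mouse 1 had 14.68 CPM, and the other 7 CLP libraries had 2.10 to 8.51 CPM. In B cell progenitors it had 16.79 CPM in double-deficient mouse 1 and 2.34 to 6.799 CPM elsewhere.

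The levels of both genes varied together among CLPs (rho = 0.895, n = 12) and less closely among B cell progenitors (rho = 0.413), a difference that was not tested. In CLPs both followed the summed megakaryocyte markers (rho of 0.965 for Grik5 and 0.916 for Grm6), mostly Itga2b (18.6 to 326.1 CPM). There they also followed the summed lymphoid progenitor markers (0.944 and 0.895, with 872.5 to 2859 CPM for 7 genes). In B cell progenitors rho was 0.657 and 0.699 with the megakaryocyte markers and 0.119 and 0.203 with the lymphoid progenitor markers. Of these markers, Ppbp alone was at 0 in a CLP library, and their part in the level of either gene was not tested. Some other lists had a higher rho than the megakaryocyte markers in B cell progenitors. Examples were NK (0.895) and neutrophil (0.797) markers for Grik5 and dendritic cell (0.818) markers for Grm6. Others had a lower rho, such as erythroid markers (0.462 and 0.399). Over all 24 libraries the profile most like that of Grik5 was Dnmbp (rho = 0.952), followed by Adcy6 (0.951) and Sepn1 (0.950). For Grm6, which was chosen for this comparison after its values were seen, it was P2ry14 (0.940), followed by Cdh1 (0.932) and Il17rb (0.921).

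The promoters of Grik5 and Grm6, which were read well above the no-gene density in CLPs, are shown beside that of Gabra6, the GABA-A subunit with the largest difference between populations. Each is the 250 bases before the RefSeq start of the gene (GRCm38.p6), 5' to 3' on the strand of the gene, at chr7:25072370-25072619 (minus), chr11:50850435-50850684 (plus) and chr11:42321073-42321322 (minus). Capitals mark CG dinucleotides, which read the same on both strands.
Grik5: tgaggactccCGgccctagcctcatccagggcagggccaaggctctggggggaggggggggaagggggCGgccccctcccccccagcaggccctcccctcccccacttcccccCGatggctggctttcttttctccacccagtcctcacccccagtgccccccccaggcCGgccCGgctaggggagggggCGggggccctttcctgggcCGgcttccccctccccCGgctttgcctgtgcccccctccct
Grm6: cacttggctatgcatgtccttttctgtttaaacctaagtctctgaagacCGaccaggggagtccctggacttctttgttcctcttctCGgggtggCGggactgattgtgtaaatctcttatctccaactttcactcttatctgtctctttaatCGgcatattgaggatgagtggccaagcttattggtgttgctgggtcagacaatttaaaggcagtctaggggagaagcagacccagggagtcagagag
Gabra6: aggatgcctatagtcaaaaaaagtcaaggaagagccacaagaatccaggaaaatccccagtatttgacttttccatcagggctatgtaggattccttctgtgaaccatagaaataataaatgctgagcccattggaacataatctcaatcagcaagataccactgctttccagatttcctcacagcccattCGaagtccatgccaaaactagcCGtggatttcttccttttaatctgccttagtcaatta
Grik5 had 8 CG dinucleotides, Grm6 4 and Gabra6 2. At least as many were found in 43.0%, 62.2% and 81.2% of 32851 promoters of the same length. The median was 9 for the 31 members with a promoter in the table, from 0 to 42, and 6 over all promoters. The count did not order the members by density per kb: Grik3 had 42 and a ratio to the no-gene density of 0.3502 in CLPs, whereas Grik5 had 8 and a ratio of 44.73.

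Gria2, an AMPA subunit that limits calcium entry through the channel, was read less densely per kb than Gria3: its ratio to the no-gene density was 2.585 against 142.4 in CLPs and 0.7197 against 12.05 in B cell progenitors. In CLPs it had 4.26, 2.80 and 3.04 CPM in WT, 1.63 to 3.46 CPM in Plcg1-deficient, 0.761, 1.44 and 1.42 CPM in Plcg2-deficient, and 3.08, 6.24 and 9.75 CPM in double-deficient mice. The 3 Plcg2-deficient libraries lay below all WT libraries, whereas the double-deficient ones overlapped with WT. In B cell progenitors it ran from 0.836 CPM in Plcg2-deficient mouse 1 to 15.04 CPM in Plcg1-deficient mouse 2. Among other AMPA genes, Gria1 had 0.0822 to 5.43 CPM in CLPs and up to 12.6 CPM in B cell progenitors, and Gria4 had a mean of 1.05 CPM over all libraries. Of the NMDA genes, Grin3a, a glycine-binding subunit, had a mean of 2.59 CPM, Grin3b 1.99 CPM and Grin2d 1.46 CPM, and Grin1, the subunit that every NMDA receptor needs, had 61 reads in all. Grin3b shares 73 bp of exon with Tmem259 on the opposite strand, which held 52798 reads, and the library kit does not mark strand, so reads there cannot be assigned. The same holds for Grin1os and Grin1, and for Gabra5 and Gm9962, which share 148 bp.

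Most members that were read thinly had more CPM in libraries with a higher no-gene share. Summed over the 19 GABA-A subunits, CLPs had 1.07 to 7.32 CPM in 11 libraries and 27.6 CPM (117 reads) in Plcg2-deficient mouse 3, the CLP library with the highest no-gene share. B cell progenitors had 1.40 CPM (4 reads) in double-deficient mouse 1 to 80.4 CPM (604 reads) in Plcg1-deficient mouse 2, the library with the highest share of all. Within a population the GABA-A sum and the no-gene share had a Pearson's r of 0.905 and a rho of 0.804 in CLPs and an r of 0.926 and a rho of 0.951 in B cell progenitors, over 12 libraries each. Without the 2 libraries farthest from the median share, r was 0.686 and 0.974. Gene reads are the divisor of the CPM and part of the divisor of the share, so the points are tied by construction and no p is given.

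The same was done for 6 other receptor and channel families that are best known from neurons or sensory cells. For 3 of them r was 0.967 and 0.933 for odorant receptors, 0.975 and 0.948 for vomeronasal receptors and 0.935 and 0.942 for taste receptors, in CLPs and B cell progenitors. Nicotinic acetylcholine receptor subunits gave 0.851 and 0.942, serotonin receptors 0.739 and 0.942, and voltage-gated sodium channels 0.697 and 0.923. In CLPs the last 2 rested on the farthest libraries, with a rho of 0.364 and 0.385 and an r of -0.176 and 0.132 without the 2 farthest libraries. The NMDA sum gave 0.911 and 0.931, and 0.524 and 0.908 without the 2 farthest libraries. The AMPA sum, which was mostly Gria3, gave 0.043 and -0.171, and the kainate and metabotropic sums gave -0.317 and -0.352 in CLPs and 0.580 and 0.837 in B cell progenitors. By gene, rho with the share was above 0 for 39 of 44 members in CLPs (median 0.492) and for 41 of 44 in B cell progenitors (median 0.758). At no-gene shares that were higher throughout, B cell progenitors had lower GABA-A densities of 0.026 to 0.345 times the no-gene density against 0.136 to 0.980 in CLPs. What the reads on no gene consisted of is not given in the sources used here, and 0 mitochondrial gene symbols were in the table.

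**Figure D3:**
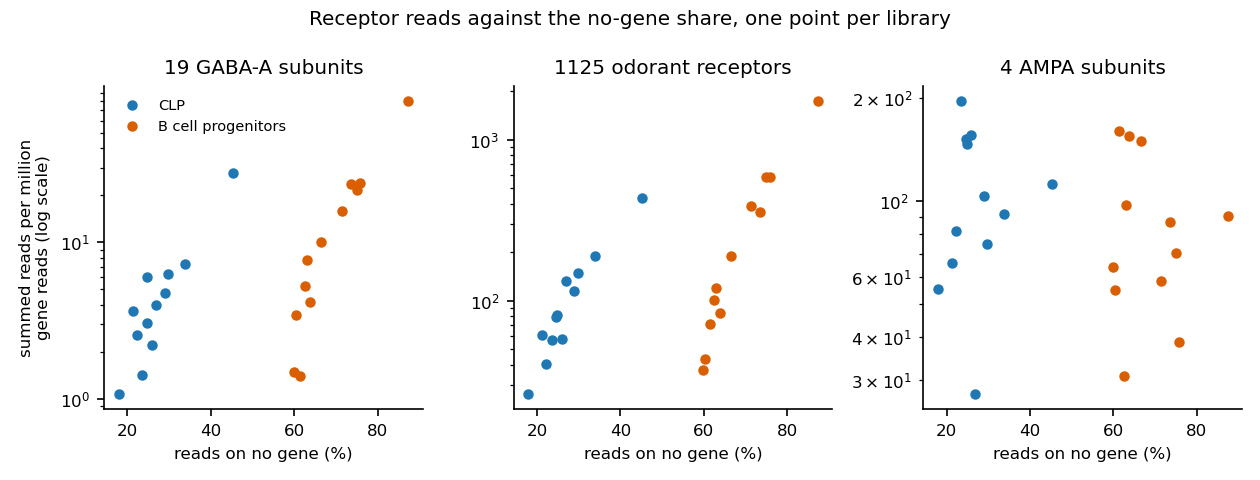
Summed CPM (log axis) of 19 GABA-A subunits, 1125 odorant receptors and 4 AMPA subunits against the percentage of reads on no gene, 1 point per library. The first 2 sums rise with the share within CLPs (r of 0.905 and 0.967) and within B cell progenitors (0.926 and 0.933), and the AMPA sum does not (0.043 and -0.171).

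To ask which members differed between B cell progenitors and CLPs, all 24 libraries were tested with edgeR's quasi-likelihood test, scaled to reads on genes. Calls needed a log2 fold change of 0.5 or more in either direction together with a p of 0.05 or less after Benjamini-Hochberg adjustment. Of the 34 members with enough reads to be tested, 8 were called, against 14.4% of 17212 genes. Higher in B cell progenitors were 6, against 8.41% of genes, among them Gabra6 (log2 fold change 2.84 ± 0.70 SE, adjusted p = 0.00461), Gabra4 (2.27 ± 0.62, 0.00928), Gabrg1 (2.14 ± 0.70, 0.0263) and Grm7 (1.76 ± 0.64, 0.0422). Lower were 2, against 5.98% of genes: Grm6 (-2.26 ± 0.60, adjusted p = 0.0078) and Grik5 (-0.81 ± 0.26, 0.0227). Gria3 had a log2 fold change of -0.44 ± 0.32 (adjusted p = 0.307). The median over the 34 members was 1.05, and over all genes tested 0.075. A thinly read gene could pass the filter on low counts through the libraries of 1 population. Gabra4, Gabrg1 and Grm7 reached at most 0.709, 0.712 and 0.732 CPM in CLPs and entered through B cell progenitors. So did Gabra6, which had 1.18 CPM in CLPs of Plcg2-deficient mouse 3 and at most 0.270 CPM in the other CLP libraries. The filter thus tilts the member counts and median towards the population with more reads. Without it, 7 of 44 members were called, 5 higher and 2 lower, against 3013 of 23672 genes, 1589 higher and 1424 lower. The median was then 0.888 over the members and 0.116 over all genes.

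The 6 members that were higher were read at very low levels. Gabra6, a subunit best known from cerebellar granule cells, had 18 reads in the 12 CLP libraries, 0 to 6 each, and 86 in B cell progenitors, of which 31 were in Plcg1-deficient mouse 2 and 27 in Plcg2-deficient mouse 2. Its ranges in the 2 populations overlapped. Gabra4 had 42 reads in CLPs and 128 in B cell progenitors, Gabrg1 28 and 64, and Grm7 58 and 118. All 6 lay below the no-gene density, at ratios of 0.214 to 0.505 in CLPs and 0.133 to 0.345 in B cell progenitors.

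With libraries scaled to all deposited reads, no-gene reads included, the split of calls turned from 6 higher and 2 lower to 1 higher (Gabra6) and 8 lower among 29 members tested. In that scaling 83.1% of all genes were called, 81.3% lower and 1.77% higher, and the median fell to -1.17 over all genes and to -0.38 over the members. Of 28 members tested in both scalings 11 changed sign, all from higher to lower, among them Gria2 (from 1.00 to -0.38), Grin3a (from 0.95 to -0.37), Gria4 (from 1.22 to -0.13) and Grm8, which went from 0.22 to -1.06 and was called lower. Grm6 and Grik5 were lower in both scalings, at -3.46 and -1.96 with all reads. With the mouse as a block, since both libraries came from the same animal, 4 members were called, all higher, against 12.3% of genes called and 6.72% higher, among them Gabra6 and Gria2 (0.74, adjusted p = 0.0493). Grm6 (-1.53, adjusted p = 0.0721) and Grik5 (-0.70, adjusted p = 0.0556) were not called in the blocked edgeR fit, nor were Gabra4 (adjusted p = 0.0527), Gabrg1 (0.0852) and Grm7 (0.308). When each of the 24 libraries was left out in turn, Grik5 kept its call in 22 refits, Gabrg1 in 15 and Grm7 in 8, and Grm6, Gabra4 and Gabra6 in all 24; Grik5 lost it without WT mouse 1 (-0.63) or Plcg1-deficient mouse 2 (-0.66) of the CLPs. The median over the members then ranged from 0.65 to 1.39.

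**Figure D4:**
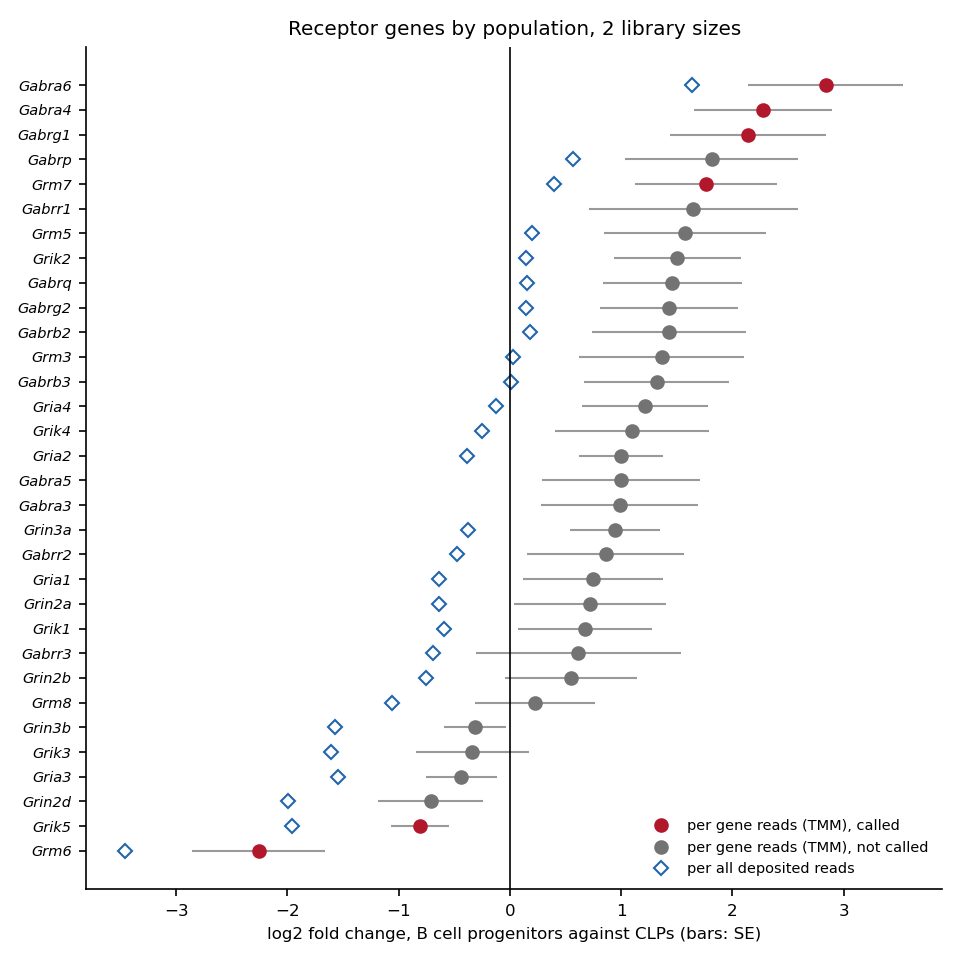
Log2 fold change of 32 receptor genes, B cell progenitors against CLPs, with SE bars, scaled to gene reads (filled; red where called) and, for the 27 of them that were tested in both scalings, to all deposited reads (open diamonds). Scaling to all reads moves each of the 27 genes to the left (median 1.05 over 34 members, -0.38 over the 29 tested with all reads), and Grm6 and Grik5 lie below 0 in both.

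Scaled to reads on genes (CPM), the summed members were similar in both populations: 53.4 to 244.8 in CLPs and 55.0 to 275.8 in B cell progenitors, with a within-mouse mean log2 ratio of -0.25 ± 0.51 (SD, 12 mice), higher in B cell progenitors in 5 of 12. The GABA-A sum had a mean log2 ratio of 1.15 ± 1.73 and was higher in 9 of 12 mice, and the metabotropic sum had -0.66 ± 1.43 and was higher in 5 of 12.

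No member was called between any deficient genotype and WT, comparisons in which few genes of any kind were called. Within CLPs, 0 of 19 members tested by edgeR were called for Plcg1-deficient, Plcg2-deficient and double-deficient cells, against 0.00658%, 0% and 0.0921% of 15209 genes. Within B cell progenitors it was 0 of 29 in each comparison, against 0.06%, 0.0467% and 0.893% of 15001 genes. At an unadjusted p of at most 0.05 there were 0, 1 and 1 members in CLPs (against 2.85%, 3.92% and 7.52% of genes) and 5, 1 and 0 in B cell progenitors (9.93%, 2.84% and 12.3%), and DESeq2 on the same libraries also called 0. In CLPs these were Gria2 in Plcg2-deficient cells (log2 fold change -1.57 ± 0.51, adjusted p = 0.939) and Grin2c, an NMDA subunit, in double-deficient cells (-1.95 ± 0.84, adjusted p = 0.637). The leading genes had log2 fold changes against WT in CLPs of 0.40, 0.55 and 0.32 for Gria3, 0.48, 0.30 and 0.31 for Grik5 and 1.87, 0.63 and 1.78 for Grm6, in Plcg1-deficient, Plcg2-deficient and double-deficient cells. The SE was 0.59, 0.58 and up to 1.38 for the 3 genes, so these values were not distinguishable from 0 with 3 mice per group.

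Among B cell progenitors, most members lay on the same side of 0 in each comparison, though none passed the test. The median log2 fold change of the 29 members was 2.21 in Plcg1-deficient cells, with 28 higher, and 1.14 in Plcg2-deficient cells, with 26 higher. In double-deficient cells it was -0.70, with 22 lower. The medians over all genes were 0.056, 0.029 and -0.018, and 55.3%, 53.7% and 48.2% of all genes were higher. A thinly read gene could pass the filter through the genotype where it was high, so these member values are descriptions. Without the filter, 43, 38 and 14 of 44 members were higher, against 66.1%, 61.9% and 40.7% of all genes. The 3 comparisons share their WT libraries. In Plcg1-deficient cells the shift was not particular to the receptor genes. There the median was 1.56 for genes of transmitter synthesis and transport, 1.22 for related receptors and 1.14 for neuron and glia markers. It was 0.18 for auxiliary subunits and scaffolds. For these lists in the same order it was 0.72, 1.08, 0.49 and -0.064 in Plcg2-deficient cells. In double-deficient cells it was -0.68, -0.23, 0.41 and 0.14, so neuron and glia markers and scaffolds did not share the sign of the members. In Plcg1-deficient cells Gabra6 had 3.24, Grik4 2.76, Grm8 2.52 and Grin2d 2.04 (adjusted p = 0.467 for each), and in Plcg2-deficient cells Gabra6 had 2.86 (adjusted p = 0.919). With the no-gene share of each library as a covariate in the edgeR fit, the 3 medians were 0.16, 0.14 and -0.03. The no-gene share was higher by 11.2 and 6.92 points in the first 2 groups than in WT and lower by 3.02 points in double-deficient cells. None of these differences in share passed its test, and share and CPM are tied by construction. The part of the share in the medians was not tested. With 1 library left out, the first median was 0.83 without Plcg1-deficient mouse 2 and 3.36 without WT mouse 1, and the second was 0.59 without Plcg2-deficient mouse 2 and 2.42 without WT mouse 1. The third was 0.45 without WT mouse 1, 0.011 without double-deficient mouse 2 and -0.43 without double-deficient mouse 1, and it was -1.15 without WT mouse 3 and -1.17 without double-deficient mouse 3.

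**Figure D5:**
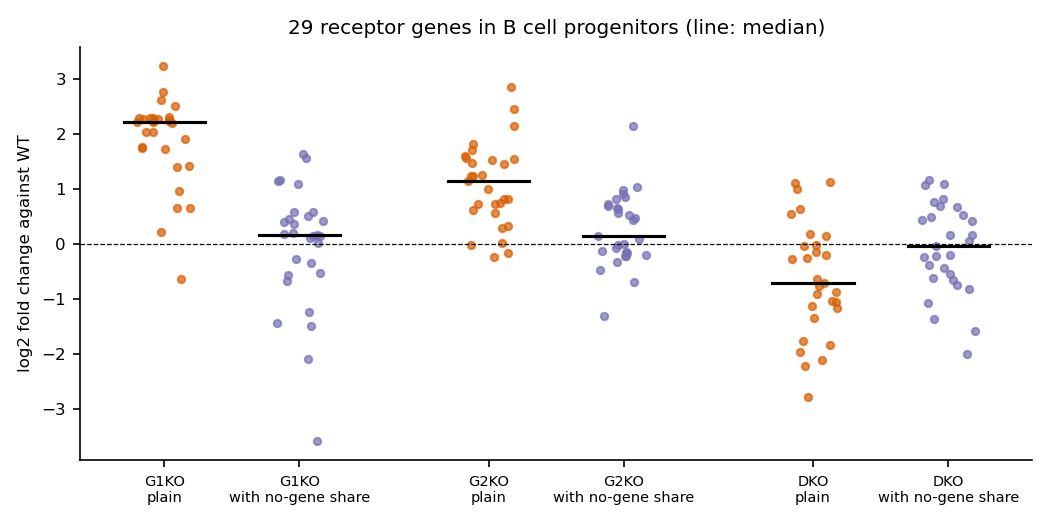
Log2 fold change against WT of the 29 receptor genes tested in B cell progenitors, for Plcg1-deficient (G1KO), Plcg2-deficient (G2KO) and double-deficient (DKO) cells, in the plain fit (orange) and with the no-gene share as a covariate (purple). Medians (lines) are 2.21, 1.14 and -0.70 in the plain fit and 0.16, 0.14 and -0.03 with the covariate.

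Other genes of the same pathways were taken from fixed lists. Of 17 tested genes for synthesis and transport of glutamate and GABA, 2 were called higher in B cell progenitors (8.41% of all genes were), Gls2, a glutaminase (1.11 ± 0.34, adjusted p = 0.0198), and Slc1a3, a glutamate transporter (1.12 ± 0.36, 0.0238), and none lower. The genes with most reads were those of general metabolism, Glud1 (268 CPM in CLPs) and Glul (215 CPM). Of 7 related receptors tested, 2 were called lower (5.98% of all genes were), Grina (-0.91 ± 0.22, 0.00361) and Gabbr1, a GABA-B receptor subunit (-1.37 ± 0.34, 0.00538). Of 25 auxiliary subunits and scaffolds 4 were called, against 14.4% of all genes. Homer3 (1.21 ± 0.09, 1.84e-09) and Neto2 (0.62 ± 0.15, 0.00358) were called higher, and the postsynaptic scaffolds Dlg4 (-1.19 ± 0.24, 0.00103) and Shank1 (-1.47 ± 0.36, 0.00434) lower. Each value is a log2 fold change ± SE with edgeR's adjusted p. Against WT, 1 gene of these 3 lists was called in any of the 6 comparisons, Shank2, which was lower in double-deficient B cell progenitors.

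The medians of 11 neuronal markers ran from 0.0703 CPM (Nefm) to 9.041 CPM (Nefh) in CLPs and from 0.205 CPM (Nefl) to 6.736 CPM (Nefh) in B cell progenitors. These 3 genes encode neurofilament subunits, and Nefh was read in every library. Rbfox3 (NeuN), a neuronal nuclear protein, had a median of 0.196 CPM in CLPs and 0.320 CPM in B cell progenitors, and Snap25, a synaptic vesicle fusion protein, had 0.180 and 0.314 CPM. The list summed to 129.6 to 389.2 CPM in CLPs and 87.8 to 355.9 CPM in B cell progenitors, most of it from Mbp (148 and 108 CPM), which blood cells also transcribe. None of the 16 genes was at 0 in a whole population, and 2 of 13 tested, Map2 and Aqp4, were called higher in B cell progenitors, against 8.41% of all genes.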

How the data were processed

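RNA of sorted CLPs and B cell progenitors from 4 genotypes with 3 recipients each was purified by its poly(A) tail, made into NEBNext Ultra libraries and sequenced on an Illumina NextSeq instrument. Per the labels, the authors aligned reads to mm10 with STAR 2.5.0a and deposited the raw count of reads on each RefSeq gene, plus separate rows that sum the no-gene and the ambiguous reads; these rows were kept out of library sizes and tests. The counting program and its strand setting are not given in the sources used here. Reads on no gene were 17.9% to 87.3% of a library, and ambiguous reads 0.110% to 1.44%.

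The main test was the quasi-likelihood test of edgeR 4.0.16, run under R 4.3.3 (TMM, filterByExpr with a minimum count of 10, glmQLFit, glmQLFTest), in 1 fit over 24 libraries for populations and 1 fit per population for genotypes. Calls needed a log2 fold change of 0.5 or more in either direction and an adjusted p of 0.05 or less. The script was tested on simulated data. Exon lengths came from GENCODE vM21 (GRCm38), and the genome outside exons spanned 2.653 Gb. The mouse identifiers in the labels pair the populations: deviations of both libraries of a mouse correlated at -0.109 to 0.587 (mean 0.266, 12 mice). The members and lists were chosen with earlier results of these data known. Named were every member called or tested, the 12 with the highest mean, the 2 genes with most reads in each list and, for the 2 members with most reads, the 3 most similar profiles; tested members not named are given in counts, and some values are not reported here. Alternatives were RLE factors, no filter, adjusted p alone, DESeq2 1.42.0, all deposited reads as library size, thinned counts, blocks, the no-gene share as a covariate, WT alone and each library left out. Promoters came from RefSeq, and figures were drawn with matplotlib.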

Additional observations from a re-analysis of the deposited data

How the results depend on the processing

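In all 6 genotype comparisons 0 members were called by edgeR or DESeq2 under the alternatives run, each left-out library included. Between populations, where 8 members were called, 2 were called after thinning to the smallest library (of 4 tested), 4 with the mouse as replicate block and 0 of 8 tested in WT libraries alone. Leaving out 1 library gave 5 (without CLP WT mouse 1) to 13 (without B cell progenitor WT mouse 3) calls. The shares of all genes called after thinning, in WT alone and in these refits are not reported here. These member counts are thus not set against a background. Grm6, Gabra4 and Gabra6 were called in 24 of 24 such refits, Grik5 in 22 (not without CLP WT mouse 1 or Plcg1-deficient mouse 2), Gabrg1 in 15 and Grm7 in 8. The mean log2 ratio of summed reads moved to -1.49 per all deposited reads and to -2.86 per no-gene read. With all deposited reads as library size Gria2, Grin3a and Gria4 were at -0.38, -0.37 and -0.13 between populations, and Grin3a was at -0.069 in WT alone. Single genes also changed sign against WT. In CLPs, Grm6 was at -0.27 in Plcg2-deficient cells with the replicate block and Grik5 at -0.25 in double-deficient cells with the no-gene covariate. In Plcg1-deficient B cell progenitors Gria2 was at -0.72 (all reads), -0.21 (thinned), -0.28 (replicate block) and -2.09 (covariate), and Grik4 at -0.67 (covariate). The cause was not tested. With 1 library left out, in the order Plcg1-deficient, Plcg2-deficient and double-deficient CLPs, Grm6 ranged from -0.85 to 3.60, -0.74 to 2.35 and -0.053 to 3.49. In Plcg1-deficient and double-deficient CLPs, Grik5 ranged from -0.26 to 1.34 and -0.044 to 1.16, and Gria3 from -0.0054 to 1.11 and -0.54 to 1.03. In B cell progenitors, Gria2 ranged from -1.58 to 0.64 (Plcg1-deficient) and -0.78 to 0.19 (Plcg2-deficient), Grm6 from -0.42 to 0.046 and Gria3 from -0.21 to 1.17 (both Plcg2-deficient). The no-gene share difference from WT ranged from -3.747 to 2.08 points in Plcg1-deficient CLPs and from -5.388 to 0.39 points in double-deficient B cell progenitors; leaving out libraries for the share and the sums was chosen after seeing the data.

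The labels do not say what the mouse number stands for across genotypes, so a shared batch cannot be told. Correlations of deviations between same-numbered mice ran from -0.302 to 0.400. Their means were 0.0943, 0.0359 and 0.145 in B cell progenitors, against -0.0468, -0.0145 and -0.0721 for other pairs. In CLPs they were -0.0775, -0.0296 and 0.104, against 0.0515, 0.02 and -0.0475. Deviations were taken from the mean of each group of 3, which ties the mean of the other pairs to the opposite sign. The values for other pairs thus add no separate information on a shared batch. The replicate block called 0 members in each comparison. Over all genes, double-deficient CLPs had 14 calls, against 50 with the replicate block, 169 by DESeq2 and 2 with the covariate, and double-deficient B cell progenitors 134, against 550, 444 and 213, or 52 with all deposited reads. DESeq2 called 16 and 11 genes in Plcg1-deficient and Plcg2-deficient CLPs, against 1 and 0, and 29 and 17 in B cell progenitors, against 9 and 7. Depth limits the thinly read members: 3 reads were worth up to 2.03 CPM, above the mean of the 31 members below 1 CPM.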
